A study of Mus musculus with 13 samples.

Results

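Voltage-gated potassium (Kv) channels of cardiac repolarization were followed at the RNA level in pacemaker cells (PC) and right atrial cardiomyocytes (RACM) of the neonatal mouse heart. The set comprised 9 genes picked by symbol among 55487 gene IDs: the pore genes Kcnd2, Kcnd3, Kcna4, Kcna5, Kcnh2 and Kcnq1 and the accessory genes Kcnip2, Kcne1 and Kcne4. All 9 passed the filter on low counts. Both cell types were sorted from hearts carrying an Hcn4-GFP and a Myh6-mCherry reporter, and the file headers name the alignments of PC for red and green and those of RACM for red alone. For 1 biological replicate, tissue from where the sinoatrial node meets the right atrium was pooled from 8 to 10 hearts. Each cell type had 3 RNA libraries, which carry the numbers p0, p2 and p4. All are labelled neonatal, the meaning of the number is not given, and values below always stand in the order p0, p2, p4. The 7 ATAC-seq samples of the series were not analysed here.

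Kv channels open when the membrane depolarizes and carry the outward potassium currents that end the action potential. The transient outward current Ito shapes early repolarization, through Kcnd pores with Kcnip2 for its fast component (Ito,f) and through Kcna4 for its slow component (Ito,s). The ultrarapid current IKur flows through Kcna5, the rapid delayed rectifier IKr through Kcnh2 (the ERG channel), and the slow delayed rectifier IKs through Kcnq1 with Kcne1. In pacemaker cells the decay of delayed rectifier current after each beat is one of the events behind the slow diastolic depolarization.

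Total counts were between 18371816 and 22290996 in PC libraries and between 14141151 and 19555932 in RACM libraries. All 5 pacemaker markers were higher in PC (Hcn4, Isl1, Tbx3, Shox2 and Tbx18, of which Hcn4 was part of the sort). Their summed level in CPM, which are counts scaled to library size, was 3354 to 3437 in PC against 66.5 to 91.3 in RACM. The 5 atrial muscle markers were mixed, and their sums overlapped (16040 to 20210 CPM in PC, 16810 to 18060 CPM in RACM). Nppa, Bmp10 and Gja5 were lower in PC by the test below. Myl4 (mean of 9626 CPM in PC against 7420 CPM in RACM) and Myl7 (7847 against 5545 CPM) were higher in each PC library but did not pass it. Summed cardiomyocyte markers (Actn2, Tnnt2, Ryr2 and Myh6, the last part of the sort) were at 35110 to 42990 CPM in PC and 21780 to 37820 CPM in RACM. RNA of other cells was also present. The 7 fibroblast markers summed to 1589, 3658 and 10650 CPM in RACM and to 838, 955 and 2166 CPM in PC, and the 6 macrophage markers, all of which were lower in PC, to 91.5, 240 and 382 CPM in RACM and to 15.4, 7.01 and 23.2 CPM in PC. In sorted pools, fewer cells of a type and less RNA per cell cannot be told apart.

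PC were set against RACM to find which repolarizing channel genes differ between the node and the neighbouring atrial muscle. Of the 9 genes, Kcnd3 and Kcna5 rose in PC, Kcnd2 fell, and 6 did not pass (edgeR quasi-likelihood test, adjusted p below 0.05 over 18015 genes). The same test called 7.27% of all genes tested, 3.69% as higher and 3.57% as lower in PC. The median log2 fold change of the 9 genes was 0.15, against 0.0064 over all genes tested. PC and RACM libraries did not overlap in CPM for 6 of the 9, 4 higher and 2 lower in PC, which was so for 26.9% of all genes tested (13.5% higher, 13.4% lower). With the p number as a replicate block the same 3 genes passed, where 11.6% of all genes did (5.96% higher, 5.6% lower).

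**Figure D1:**
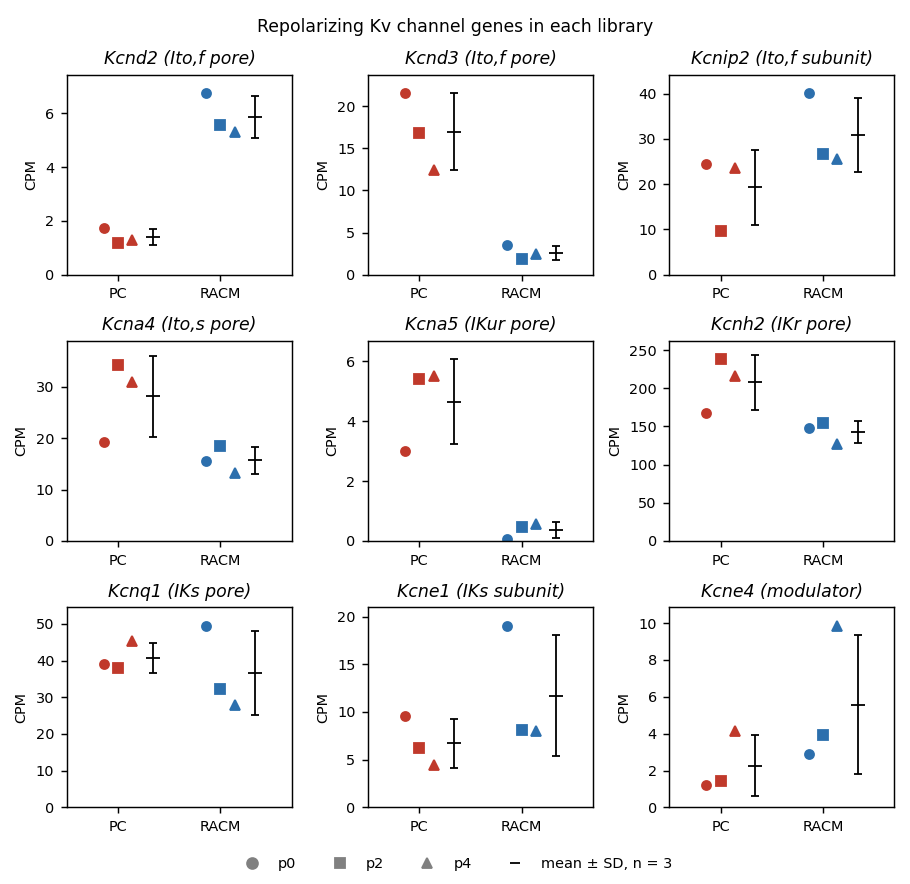
Level of each of the 9 genes in CPM (linear axes from 0, a different range in each panel) in the 3 PC (red) and 3 RACM (blue) libraries; symbols give the p number and black bars the mean ± SD. Kcnd2 lies between 1.19 and 1.73 CPM in PC and between 5.29 and 6.77 CPM in RACM, while Kcnd3 lies between 12.5 and 21.6 CPM in PC and between 1.85 and 3.52 CPM in RACM.

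The pore genes of the fast transient outward current changed in opposite directions. Kcnd3 (ENSMUSG00000040896, mm10 chromosome 3 from 105452330 to 105674002, plus strand, 8 merged exon blocks), one of the Shal-type pores of Ito,f, was at 21.6, 16.8 and 12.5 CPM in PC. In RACM it was at 3.52, 1.85 and 2.45 CPM. Every PC library thus lay above every RACM library, and the log2 fold change was 2.70 ± 0.37 (SE, 3 libraries of each; edgeR adjusted p = 0.00374), or 6.50-fold. Kcnd3 passed under all 13 alternative settings, each library left out included, with a log2 fold change from 2.49 to 2.98. An antisense gene, Kcnd3os, shared 1.72% of its exon bases, and counting took no account of strand there.

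Kcnd2 (ENSMUSG00000060882, chromosome 6 from 21215503 to 21729805, plus strand, 6 merged exon blocks), the other main Shal-type pore of Ito,f in rodent heart, had the reverse order. It was at 1.73, 1.19 and 1.28 CPM in PC and at 6.77, 5.56 and 5.29 CPM in RACM. All PC libraries lay below all RACM libraries. The log2 fold change was -2.07 ± 0.44 (edgeR adjusted p = 0.0246), a 4.19-fold lower level on 79 counts over the PC libraries and 301 over the RACM libraries. Its call was lost without any 1 of the 6 libraries (adjusted p from 0.0543 to 0.102) and without both p4 libraries (adjusted p = 0.0938), with a log2 fold change from -2.25 to -1.95 over all settings tried.

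Per kilobase of exon, which allows genes of different length to be set side by side, the ratio of Kcnd3 to Kcnd2 was 6.73, 7.60 and 5.26 in PC and 0.280, 0.179 and 0.249 in RACM. Kcnd3 was thus the more abundant of the pair in each PC library and Kcnd2 in each RACM library. The mean ratios were 6.53 ± 1.19 and 0.236 ± 0.0515 (SD, n = 3), and with 3 libraries against 3 an exact permutation test cannot go below p = 0.1. The sum of both genes differed less, at 2.59, 1.98 and 1.55 CPM per kilobase in PC and 1.68, 1.27 and 1.28 CPM per kilobase in RACM, and these ranges overlapped. Kcnd1, the remaining pore gene of the family, did not pass (0.81 on the log2 scale, edgeR adjusted p = 0.414). With Kcnd1 counted in, Kcnd3 made up 67.3 ± 6.50% of the family's level per kilobase in PC and 15.5 ± 2.82% in RACM, and Kcnd2 10.5 ± 1.43% and 66.1 ± 5.23% (SD, n = 3).

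Kcnip2 (chromosome 19 from 45791839 to 45816061, minus strand), the calcium-binding subunit that brings Kcnd pores to the surface and shapes their gating, was at 24.5, 9.67 and 23.6 CPM in PC and 40.2, 26.6 and 25.6 CPM in RACM. PC libraries lay below RACM libraries, with PC p0 close under RACM p4. The log2 fold change of -0.67 ± 0.35 did not pass (edgeR adjusted p = 0.33, 95% interval from -1.47 to 0.13). Its level per kilobase over that of Kcnd2 and Kcnd3 together was 2.58, 1.33 and 4.15 in PC and 6.51, 5.68 and 5.43 in RACM. The ratio was lower in every PC library, and in PC it differed more from library to library than in RACM.

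Kcna5 (ENSMUSG00000045534, chromosome 6 from 126532551 to 126535412, minus strand, 1 exon block), the pore gene of IKur, was scarce in RACM. Its counts were 54, 96 and 117 in PC and 1, 8 and 12 in RACM, or 3.01, 5.43 and 5.53 CPM against 0.0691, 0.479 and 0.577 CPM. The count in RACM p0 lies under the floor of 3 counts (0.207 CPM), so in that library a low level and an absence cannot be told apart. Kcna5 rose in PC by 3.58 ± 0.73 on the log2 scale (edgeR adjusted p = 0.0212). The ratio of the pooled counts was 11.6 with an exact 95% interval from 7.46 to 19.1, which covers counting error only. Leaving out PC p2 ended the call (adjusted p = 0.0525), as did leaving out PC p4 (0.0503), RACM p2 (0.0849) or both p4 libraries (0.0713). Vascular smooth muscle also expresses Kcna5. Of 6 smooth muscle and pericyte markers, Myh11 and Cspg4 were higher and Pdgfrb lower in PC, and none was at 0 in any library. Acta2 (mean of 439.5 CPM in PC against 157.7 CPM in RACM), Tagln (3.42 against 3.15 CPM) and Rgs5 (24.6 against 96.8 CPM) did not pass. The list summed to 596, 373 and 642 CPM in PC and to 166, 237 and 571 CPM in RACM. Acta2 was the largest part of this sum in each library. The part of such cells in the rise of Kcna5 was not tested.

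The 250 bases upstream of the RefSeq start of the 3 genes that passed are shown because these are the genes whose level differed between the cell types. RefSeq promoters (GRCm38.p6) were matched for 7 of the 9 genes. Each is printed 5′ to 3′ on the strand of its gene, from chr6:21215096-21215345 (plus strand) for Kcnd2, chr3:105451640-105451889 (plus strand) for Kcnd3 and chr6:126535556-126535805 (minus strand) for Kcna5. In the deposited annotation the first exons of these 3 genes begin downstream of the windows. Capitals mark matches to any of 7 motifs searched on both strands.
Kcnd2: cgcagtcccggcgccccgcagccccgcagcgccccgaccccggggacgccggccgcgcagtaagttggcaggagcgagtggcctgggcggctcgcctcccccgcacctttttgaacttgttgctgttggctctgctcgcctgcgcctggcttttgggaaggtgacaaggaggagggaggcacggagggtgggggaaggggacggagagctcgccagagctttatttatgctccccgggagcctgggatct
Kcnd3: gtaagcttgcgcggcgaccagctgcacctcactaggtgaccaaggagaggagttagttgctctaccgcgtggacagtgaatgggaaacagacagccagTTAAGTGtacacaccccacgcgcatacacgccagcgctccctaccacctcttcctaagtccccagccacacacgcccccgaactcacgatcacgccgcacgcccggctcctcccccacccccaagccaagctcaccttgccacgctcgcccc
Kcna5: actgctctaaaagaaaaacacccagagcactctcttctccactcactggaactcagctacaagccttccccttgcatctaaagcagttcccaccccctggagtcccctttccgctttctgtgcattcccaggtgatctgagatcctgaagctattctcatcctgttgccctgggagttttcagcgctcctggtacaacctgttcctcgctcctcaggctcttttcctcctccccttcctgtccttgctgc
The motifs were a T-box half-site (GGTGTNA, in 8.61% of 32851 promoters of this length), an NKX2-5 site (TNAAGTG, 10.1%), an ISL1 site (CTAATG, 6.36%), a MEF2 site (3.2%), an IRX site (ACANNTGT, 6.31%), a GATA site (AGATAA, 9.99%) and a TATA box (TATAAA, 12.4%). The single match in the windows of the 7 genes was TTAAGTG, the NKX2-5 letters, from 152 to 146 bases before the start of Kcnd3. No match says only that these letters are not in this window. The Kcnh2 window (chromosome 5 from 24329592 to 24329841) lies inside the deposited gene, which starts at 24351604 on the minus strand. That of Kcne4 holds 153 of the gene's own exon bases. The windows of Kcnd2 and Kcnd3 were rich in G and C (68.8% and 62.8%), and that of Kcna5 was near the median of all promoters (53.2% against 52.4%).

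**Figure D2:**
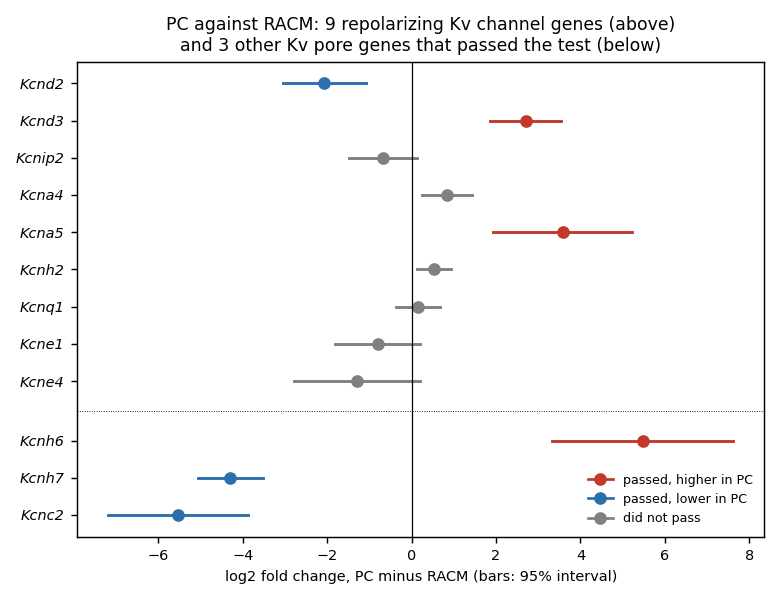
Log2 fold change of PC minus RACM (points) with 95% intervals (bars) from the edgeR fit, for the 9 repolarizing genes and for 3 other Kv pore genes that passed the test. Red marks genes that passed as higher in PC, blue those that passed as lower and grey those that did not pass; Kcnd3 at 2.70 and Kcnd2 at -2.07 lie on opposite sides of 0.

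The slow transient outward and rapid delayed rectifier genes did not pass the test, though each PC library lay above each RACM library. Kcna4 (chromosome 2 from 107290639 to 107298502, plus strand), the pore gene of Ito,s, was at 19.2, 34.3 and 30.9 CPM in PC and at 15.5, 18.5 and 13.2 CPM in RACM. PC p0 lay just above RACM p2, and the other PC libraries well above. The log2 fold change was 0.84 ± 0.26 (edgeR adjusted p = 0.0991, 95% interval from 0.24 to 1.44). It passed by DESeq2 (adjusted p = 0.0449) and by none of the other 12 alternatives.

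Kcnh2 (ENSMUSG00000038319, chromosome 5 from 24319589 to 24351604, minus strand), the pore gene of IKr, was the most abundant of the 9 per kilobase in every library. It was at 168, 238 and 217 CPM in PC and at 147, 155 and 126 CPM in RACM. The cell types did not overlap, and PC p0 stood nearest to RACM. The log2 fold change was 0.54 ± 0.18 (edgeR adjusted p = 0.11, 95% interval from 0.14 to 0.94), and it did not pass under any of the 13 alternatives. Within the p numbers the log2 difference was 0.19, 0.62 and 0.78 for p0, p2 and p4. Kcna4 and Kcnh2 had similar profiles over the 6 libraries (Pearson r = 0.994 of log2 CPM, as a description). The pair is named because it had the strongest correlation of all pairs among the 9 genes, followed by Kcnd2 with Kcna5 (r = -0.973).

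Neither IKs gene passed the test, and both overlapped between the cell types. Kcnq1 (chromosome 7 from 143106362 to 143427042, plus strand), the pore gene of IKs, was at 39.0, 37.8 and 45.3 CPM in PC and at 49.5, 32.3 and 28.0 CPM in RACM, so that the groups overlapped. Its log2 fold change was 0.15 ± 0.23 (edgeR adjusted p = 0.779), with a 95% interval from -0.38 to 0.68 that leaves room for a change of either sign. Within the p numbers it was -0.35, 0.23 and 0.69 for p0, p2 and p4, and the sign of the whole turned when RACM p4 (-0.0073) or both p4 libraries (-0.11) were left out. The imprinted antisense RNA gene Kcnq1ot1 shared 2.96% of its exon bases, where the same limit holds.

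Kcne1 (chromosome 16 from 92345982 to 92359468, minus strand), the single-span subunit that slows Kcnq1 channels, was at 9.53, 6.22 and 4.44 CPM in PC and 19.1, 8.14 and 7.99 CPM in RACM. The groups overlapped, since PC p0 lay above RACM p2 and p4, and RACM p0 stood high. The log2 fold change was -0.80 ± 0.45 (edgeR adjusted p = 0.366, 95% interval from -1.81 to 0.21). Its level per kilobase over that of Kcnq1 was 0.311, 0.209 and 0.125 in PC and 0.490, 0.321 and 0.363 in RACM. Every PC ratio lay below every RACM ratio, PC p0 narrowly.

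Kcne4 (chromosome 1 from 78816758 to 78820028, plus strand), a subunit that dampens several Kv channels, Kcnq1 among them, was at 1.23, 1.41 and 4.16 CPM in PC and 2.90, 3.95 and 9.86 CPM in RACM. It was highest in p4 in both cell types, and PC p4 lay above RACM p0 and p2. The log2 fold change was -1.29 ± 0.66 (edgeR adjusted p = 0.313, 95% interval from -2.78 to 0.20), while within p0, p2 and p4 the log2 difference was -1.18, -1.42 and -1.23. The fold change was -0.59 on the log2 scale without RACM p4 and -2.08 without PC p4, and passed in neither case. Summed fibroblast markers, given above, had the same order of libraries as Kcne4 apart from PC p4, which was above RACM p0 for both but above RACM p2 for Kcne4 alone. All 7 fibroblast markers were detected in every library, and their part in the level of Kcne4 was not tested.

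RACM p0 stood high for Kcnip2, Kcne1 and Kcnq1. In that library the 3 ventricular muscle markers Myl2, Myl3 and Irx4 summed to 616 CPM, against 243 and 299 CPM in RACM p2 and p4 and 166 to 325 CPM in PC. Myl2, the ventricular myosin light chain, was at 244 CPM in RACM p0 and at 19.6 and 22.3 CPM in RACM p2 and p4. Irx4 set RACM p0 less apart, with 20 counts there (1.38 CPM) against 17 for RACM p2 (1.02 CPM), and it was at 0 in RACM p4. The cardiomyocyte markers were also highest in RACM p0 among the RACM libraries (37820, 31750 and 21780 CPM), while the fibroblast markers were lowest there. Kcnd2 and Kcnd3 had their highest RACM value in p0 as well, Kcna4 and Kcnh2 in p2, and Kcna5 and Kcne4 in p4. The part of ventricular RNA, or of muscle RNA as a whole, in the levels of Kcnip2, Kcne1 and Kcnq1 was not tested. Without RACM p0 the log2 fold change of Kcnip2, Kcne1 and Kcnq1 was -0.43, -0.25 and 0.44.

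**Figure D3:**
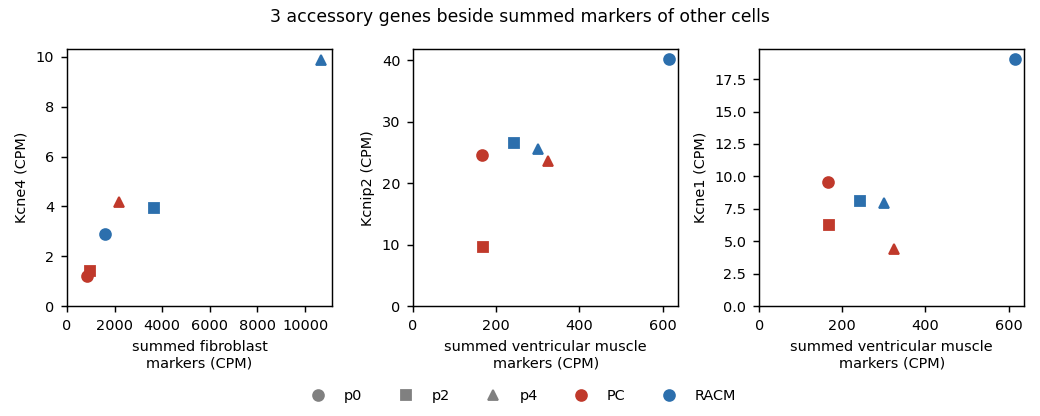
Level in CPM of Kcne4 against the sum of 7 fibroblast markers, and of Kcnip2 and Kcne1 against the sum of 3 ventricular markers, 1 point per library (linear axes; red PC, blue RACM; symbols give the p number). RACM p4 is the highest point for Kcne4 (9.86 CPM at 10650 CPM of fibroblast markers), and RACM p0 the highest for Kcnip2 and Kcne1 (40.2 and 19.1 CPM at 616 CPM of ventricular markers).

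Side by side per kilobase of exon, the order of levels was led by Kcnh2 in both cell types. In PC it was Kcnh2 (42.9 ± 7.44 CPM per kilobase, SD, n = 3), Kcnq1 (9.94 ± 0.977), Kcna4 (5.83 ± 1.64), Kcnip2 (5.25 ± 2.27), Kcne1 (2.09 ± 0.804), Kcnd3 (1.77 ± 0.478), Kcna5 (1.63 ± 0.498), Kcne4 (0.853 ± 0.618) and Kcnd2 (0.271 ± 0.0563). Each gene from Kcna4 to Kcna5 overlapped with the next in its library values and had no firm order, while Kcnh2, Kcnq1 and Kcnd2 stood clear. In RACM the order was Kcnh2 (29.5 ± 3.01 CPM per kilobase), Kcnq1 (8.94 ± 2.78), Kcnip2 (8.38 ± 2.22), Kcne1 (3.65 ± 1.98), Kcna4 (3.26 ± 0.545), Kcne4 (2.10 ± 1.41), Kcnd2 (1.14 ± 0.153), Kcnd3 (0.272 ± 0.0882) and Kcna5 (0.131 ± 0.0942). There, Kcnq1 overlapped with Kcnip2, Kcne1 with Kcna4, Kcna4 with Kcne4, Kcne4 with Kcnd2, and Kcnd3 with Kcna5. Kcnd2 was thus last in PC and above both Kcnd3 and Kcna5 in RACM.

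Among the 6 pore genes the share of the summed level per kilobase held by Kcnh2 overlapped between the cell types, at 68.6 ± 2.03% in PC and 68.4 ± 3.69% in RACM (SD, n = 3). Kcnq1 held 16.2 ± 2.59% and 20.5 ± 4.37%, and Kcna4 9.22 ± 1.35% and 7.54 ± 0.871%, with overlapping libraries. The minor pores set the cell types apart: Kcnd3 held 2.95 ± 1.25% in PC and 0.631 ± 0.180% in RACM, Kcna5 2.57 ± 0.477% and 0.322 ± 0.250%, and Kcnd2 0.452 ± 0.171% and 2.64 ± 0.213%, without overlap. The sum of the 6 was 51.8, 69.4 and 65.7 CPM per kilobase in PC and 47.5, 45.1 and 37.2 CPM per kilobase in RACM. That of the 3 accessory genes had the reverse order, at 10.1, 5.10 and 9.37 against 18.0, 11.2 and 13.2 CPM per kilobase. Kcnh2 and Kcnip2 made up most of these sums.

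**Figure D4:**
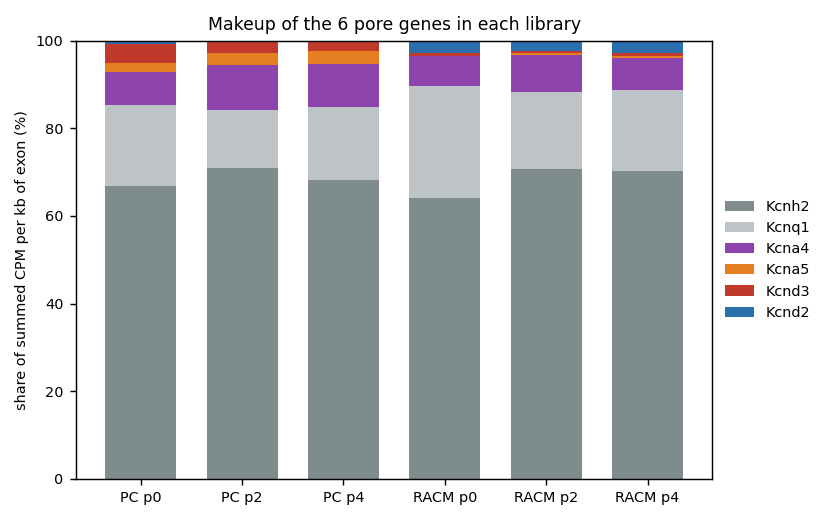
Share of each pore gene in the summed level per kilobase of the 6 pore genes (stacked bars, percent, 1 bar per library). Kcnh2 takes from 64.2% to 70.9% of the sum, while the Kcnd3 and Kcna5 segments are seen mainly in PC and the Kcnd2 segment mainly in RACM.

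The p number was tested for all genes in a model with cell type, and none of the 9 genes passed (edgeR F test, smallest adjusted p = 0.309 for Kcne4), as none did by DESeq2 or limma-voom. The unadjusted p of the F test was below 0.05 for 2 of them, Kcne4 and Kcne1, and for 2141 of all genes tested. Over all genes the edgeR test called 1 gene (0.00555% of those tested), against 686 by DESeq2 and 170 by limma-voom.

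Other Kv pore genes, from a list of 34 of which 15 were tested, were compared in the same fit. In PC 2 rose, Kcnh6 among them, 2 fell, Kcnh7 and Kcnc2, and 11 did not pass, with a median log2 fold change of 0.40. Kcng2, a silent subunit that works only with other pores, had the highest level per kilobase on the list (43.4 CPM per kilobase in PC and 33.0 in RACM) and did not pass (0.40 on the log2 scale, edgeR adjusted p = 0.32). D330025C20Rik overlaps 9.1% of the exon bases of Kcng2.

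The relatives of Kcnh2 in the ERG family went opposite ways. Kcnh7 (chromosome 2 from 62693414 to 63184287, minus strand) was at 9.98, 4.64 and 6.09 CPM in PC and at 175, 133 and 98.2 CPM in RACM, and its log2 difference was -4.29 ± 0.34 (edgeR adjusted p = 2.12e-04). Gca overlaps 4.57% of the exon bases of Kcnh7. Kcnh6 was at 4.35, 6.90 and 13.6 CPM in PC and had 2, 7 and 0 counts in RACM. Its log2 fold change was 5.47 ± 0.95 (edgeR adjusted p = 0.0108), and the pooled counts, 487 against 9, gave a ratio of 49.5 with an exact 95% counting interval from 25.9 to 109. Both passed under all 13 alternatives, but the log2 value of Kcnh6 moved to 6.96 when RACM p2 was left out, to 4.83 when RACM p4 was, and to 4.25 when p4 was dropped from both cell types. Added up per kilobase, the 3 ERG genes overlapped between the cell types (36.5, 51.4 and 49.0 CPM per kilobase in PC and 42.0, 40.8 and 32.6 in RACM). Kcnh2 made up 94.0 ± 2.26% of that sum in PC and 77.0 ± 4.03% in RACM, Kcnh7 1.07 ± 0.639% and 22.9 ± 4.02%, and Kcnh6 4.98 ± 2.46% and 0.127 ± 0.148%. The sums over the ERG and Kcnd families were chosen after their values were seen.

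**Figure D5:**
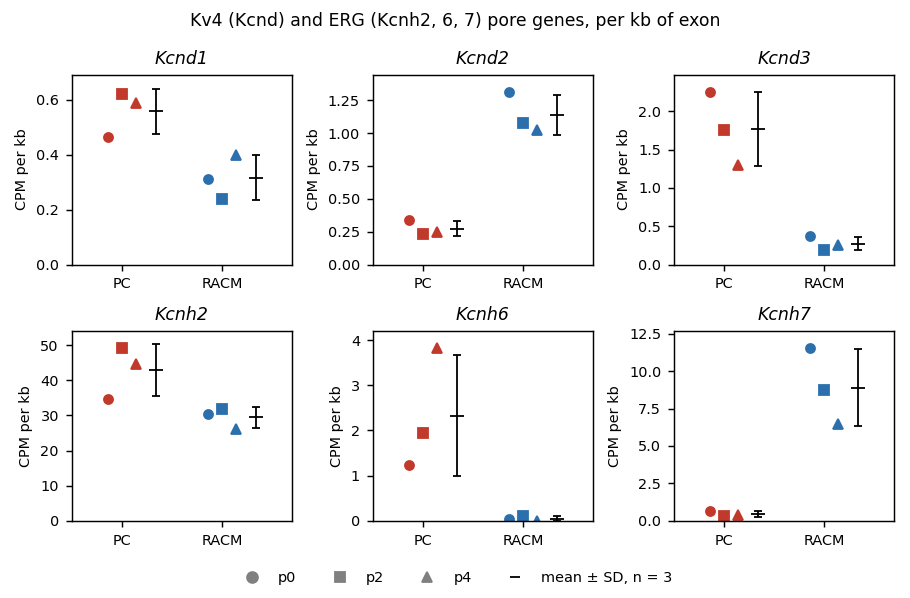
Level in CPM per kilobase of exon (linear axes from 0, a different range in each panel) of Kcnd1, Kcnd2, Kcnd3, Kcnh2, Kcnh6 and Kcnh7 in each library, with mean ± SD. Kcnd2 and Kcnh7 are high in the 3 RACM libraries, and Kcnd3 and Kcnh6 in the 3 PC libraries.

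Kcnc2, a fast delayed rectifier pore known from neurons, had 1, 1 and 3 counts in PC and 40, 65 and 130 in RACM, a pooled PC over RACM ratio of 0.0195 with an exact 95% counting interval from 0.00627 to 0.0461 (edgeR adjusted p = 0.00313). The 5 neuron markers summed to 6.17 to 9.02 CPM in PC and 3.75 to 6.77 CPM in RACM. Prph, a neuronal filament gene, had 0 counts in all 3 PC libraries and 2, 8 and 3 in RACM, too few to test. Chrna3, a nicotinic receptor subunit, was the 1 of 3 tested neuron markers that passed, with 41, 52 and 135 counts in PC and 1, 2 and 0 in RACM (edgeR adjusted p = 0.00833). The part of neuronal RNA in the levels of Kcnc2, Kcnh7 and Kcnd2 was not tested.

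Of 16 other accessory and partner genes, 11 were tested, 1 rose, 1 fell and 9 did not pass (median log2 fold change 0.10). Cav3, the muscle caveolin of the membrane pits where several Kv channels sit, rose from 57.7 ± 10.5 to 97.8 ± 11.6 CPM (log2 fold change 0.76, edgeR adjusted p = 0.0392), and passed without RACM p0 but not without any other library (adjusted p from 0.0723 to 0.177). Dpp6, a partner of Kcnd channels, had 0, 3 and 3 counts in PC and 63, 39 and 12 in RACM (adjusted p = 0.0452 by edgeR, 0.0768 with the replicate block), and its call held without RACM p4 but not without any other library (adjusted p from 0.0867 to 0.143). Akap9, the scaffold of the IKs complex, did not pass (374.6 against 349.4 CPM), nor did Nedd4l, a ubiquitin ligase of Kcnq1 (log2 fold change -0.55, edgeR adjusted p = 0.132), which passed with the replicate block (adjusted p = 0.0486).

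Of 7 genes of the IKs complex and calmodulin, Prkaca rose and 6 did not pass (median log2 fold change 0.50). Prkaca, the catalytic subunit of protein kinase A that acts on IKs, was at 166, 222 and 217 CPM in PC and at 122, 114 and 112 CPM in RACM (log2 fold change 0.80 ± 0.16, edgeR adjusted p = 0.0217). Leaving out PC p2, PC p4 or either of the same numbers in RACM ended the call (adjusted p from 0.0594 to 0.105). Calm2 and Ppp1ca had the highest levels per kilobase on that list, and neither passed. Other genes, Rad9a among them, overlap 16.5% of the exon bases of Ppp1ca. Of 3 transcription factors known to act on Ito genes, Klf15, an activator of Kcnip2, was tested and did not pass (log2 fold change -0.09, edgeR adjusted p = 0.927). Irx5, a repressor of Kcnd2 in ventricle, had 0, 0 and 1 counts in PC and 9, 6 and 4 in RACM, and Irx3 had 0, 1 and 15 and 10, 3 and 4. Both were too low to test.

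The genes with the profile most like those of the 3 that passed were sought among the genes tested with at least 10 CPM in the mean of the higher cell type, by Pearson correlation of log2 CPM over the 6 libraries, which share the contrast between cell types. For Kcnd3 they were Dync1li1, Zdhhc2 and Furin (r from 0.995 to 0.997), for Kcna5 Ntm, Stard13 and Cacna1g (r from 0.994 to 0.996), and for Kcnd2 Kcnh7, Dyrk2 and Rassf4 (r from 0.997 to 0.999). With 6 libraries such values are common: r was above 0.95 for 244, 115 and 121 candidates of Kcnd3, Kcna5 and Kcnd2. Kcnh7, the ERG gene that fell in PC, was the closest of 9205 candidates to Kcnd2 (r = 0.999).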

How the data were processed

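Sorted-cell RNA was turned into cDNA with a NuGEN Ovation kit and sequenced as 100-bp read pairs, per the labels' protocols. Per the file headers, the authors' deposited values are raw counts from featureCounts 2.0.1 in paired mode over exon features (mm10), with no option for strand or multi-mapping reads. The submitters' processing notes list Trimmomatic, HISAT2 and edgeR, with no version. Exon bases per gene come from the same deposited table and were used for levels per kilobase.

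Of 55487 gene IDs, 55141 matched a symbol. The 18015 genes kept by filterByExpr (count of 10 or more, total of 15 or more) were fitted after TMM scaling with edgeR 4.0.16 (glmQLFit, glmQLFTest, 2-sided) in R 4.3.3, adjusted by Benjamini-Hochberg over all of them, at a threshold of 0.05. CPM are counts over TMM-scaled library sizes. SE is the size of the log2 fold change over the root of the F statistic, and 95% intervals use its moderated degrees of freedom. Log2 differences within a p number add 0.1 CPM. Other settings were scaling by RLE or by the upper quartile, no count filter, the replicate block, DESeq2 1.42.0, limma-voom (limma 3.58.1), each library left out and both p4 libraries left out. The steps were tested on simulated data, where the edgeR test recovered 21.3% of 2-fold and 55.1% of 4-fold changes. A gene that did not pass may thus still differ between the cell types.

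Deviations from the cell type mean correlated by 0.156, 0.234 and 0.237 between libraries of equal p number, all above 0.1. Between PC and RACM libraries of unequal number the values lay between -0.185 and -0.001. Deviations from a group mean are tied to each other, so the values for equal and unequal numbers are not independent. The likeness of equal numbers comes from the data, and no label says that equal numbers share a pool. The main test therefore left the libraries unpaired, and the replicate block was an alternative setting. With the block the edgeR adjusted p was 0.0599 for Kcna4, 0.0602 for Kcnh2 and 0.0905 for Kcne4, and none of these passed. No libraries were near-identical (chi-square per degree of freedom from 29.5 to 74.6 between replicates). The labels call each pool a biological replicate. Amplified reads are not independent molecules, so the counting intervals, and the 3-count floor, hold for counting error alone.

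The members, lists and rules were chosen with earlier results of these data known. Named genes are the 9 members, the genes of 4 lists that passed or had the 3 highest levels per kilobase, and for the 3 members of smallest p the 3 most correlated genes. Kcnd1 and the markers named lie outside this rule and were chosen after their values were seen. Some genes that this rule selects are not reported here.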

Additional observations from a re-analysis of the deposited data

How the results depend on the processing

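Of the 9 genes, 2 were higher and 1 lower in PC with RLE or upper-quartile scaling, no filter, the replicate block and limma-voom, and 3 and 1 by DESeq2. Leaving out 1 library gave 1 to 2 higher and 0 lower in every case, and leaving out both p4 libraries 1 and 0. Over all genes, the 1309 calls (665 higher, 644 lower) became 2339 (1052 and 1287) with no filter, 2082 (1074 and 1008) with the replicate block, 2304 (1118 and 1186) by DESeq2 and 734 (378 and 356) without both p4 libraries. Leaving out 1 library gave from 511 to 1338 calls, 304 to 658 higher and 207 to 680 lower. The cause of these changes was not tested. The replicate block changed no call among the 9 genes. Kcnq1, which did not pass, ranged from -0.0073 (RACM p4 left out) to 0.44 when 1 library was left out and was -0.11 when both p4 libraries were. For the p number, 1 gene over all became 720 (no filter), 686 (DESeq2) and 170 (limma-voom), with none of the 9 genes among them. Sums and ratios within a current class were also computed with the other scalings and with 1 library left out. Scaling cancels in a ratio, and a group mean without 1 library always lies within the range of its libraries, so neither tests their stability. As log2 of PC mean over RACM mean, the IKs pore level moved from 0.152 to -0.008 without RACM p4. The ratio of Kcnd3 to Kcnd2 ranged from 4.63 to 4.93 on that scale when 1 library was left out. Depth limits Kcna5 and Kcnd2 most, at 21 counts over RACM and 79 over PC.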
